A study of Arabidopsis thaliana with 24 samples.

Results

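The mitogen-activated protein (MAP) kinase cascade genes described here are 10 genes of Arabidopsis thaliana, chosen by their AGI codes in the deposited count table of 33602 genes. They are the MAP kinase kinase kinase gene MEKK1 (AT4G08500), the MAP kinase kinase genes MKK2 (AT4G29810), MKK4 (AT1G51660), MKK5 (AT3G21220) and MKK9 (AT1G73500), the MAP kinase genes MPK3 (AT3G45640), MPK4 (AT4G01370), MPK6 (AT2G43790) and MPK11 (AT1G01560), and the phosphatase gene AP2C1 (AT2G30020). All 10 were in the table, and 9 of them were among the 17734 genes that passed the filter on low counts, MPK11 being the exception. Transcripts were measured by RNA sequencing in whole, liquid-grown seedlings of 7 days that had received 5 µM DMBQ (2,6-dimethoxy-1,4-benzoquinone) or, as a mock treatment, the same volume of its solvent DMSO for 10 min. The genotypes, all in the ecotype Col-0, were the mutants card1-1 and card1-2 and a line called WT here, which carries a transgene for the calcium reporter aequorin; both mutants were made in that line, so every group carries the transgene. The 6 groups were card1-1 DMBQ, card1-1 mock, card1-2 DMBQ, card1-2 mock, WT DMBQ and WT mock, with 4 libraries each and 24 in all.

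In a MAP kinase cascade a MAP kinase kinase kinase phosphorylates a MAP kinase kinase, which in turn phosphorylates a MAP kinase on its activation loop. The active MAP kinase phosphorylates transcription factors and enzymes, and phosphatases switch it off again. In Arabidopsis seedlings, MEKK1 acts with MKK1 and MKK2 on MPK4, and MKK4 and MKK5 act on MPK3 and MPK6. Both branches are known for their fast activation by microbial patterns and oxidative stress, which occurs at the protein and is not measured by transcript counts. DMBQ is a host-derived signal for parasitic plants. CARD1 (AT5G49760), after which the mutants are named, is a receptor kinase gene needed for quinone perception. The comparisons ask which of these transcripts respond to DMBQ within minutes and how far that response differs in the mutants.

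Gene counts per library ran from 2048246 to 9000207. The share of alignment records that were not unique, as tallied in the deposited table, was 56.0 ± 8.06% in card1-1 DMBQ against 25.1 ± 6.16% in card1-1 mock (SD, n = 4 each). It was 47.8 ± 12.1% in card1-2 DMBQ against 37.3 ± 3.18% in card1-2 mock, and 33.4 ± 5.65% in WT DMBQ against 24.7 ± 3.99% in WT mock (SD, n = 4 each). It passed 55% in replicates 1 and 4 of card1-1 DMBQ and in replicate 3 of card1-2 DMBQ, and calls among the cascade and pathway genes that rest on these libraries are also given without them. CARD1 itself had 54.1 ± 6.03 CPM in card1-1 mock and 52.8 ± 12.7 CPM in card1-2 mock, against 71.4 ± 5.41 CPM in WT mock (SD, n = 4 each). Neither mutant's difference from WT passed edgeR's test (unadjusted p = 0.0463 and 0.0321, adjusted p = 1 for both), and the labels do not give the lesions, so this transcript does not check the genotypes. Levels are given as CPM, counts relative to a library total of 1e+06, scaled by the trimmed mean of M values (TMM). Of 10 photosynthesis genes taken as shoot markers, 7 rose and 1 fell in card1-1 with DMBQ, and their summed level was 24860 to 30250 CPM in card1-1 DMBQ against 17320 to 25040 CPM in card1-1 mock. In WT none of the 10 passed with DMBQ by edgeR, DESeq2 or limma voom, and 0 had an unadjusted p below 0.05; their sum was 21390 to 24110 CPM in WT DMBQ against 19070 to 25000 CPM in WT mock. In card1-2, 1 of the 10 fell by edgeR. There 6 had an unadjusted p below 0.05 by edgeR in either direction, DESeq2 called 4 and limma voom called 1. The sum of the 10 was 24110 to 28510 CPM in card1-2 DMBQ against 21460 to 25850 CPM in card1-2 mock. In each genotype 9 of the 10 had a log2 fold change above 0. The medians were 0.561 in card1-1, 0.297 in card1-2 and 0.095 in WT. All 10 were detected in every group. Of 12 root markers, 10 were tested, and 1 fell in card1-1 (SCR, log2 -0.98) and another in card1-2 (PYK10, log2 -0.53). Of the 10, 5 had a log2 fold change above 0 in card1-1, 6 in card1-2 and 7 in WT. The medians were 0.014 in card1-1, 0.074 in card1-2 and 0.192 in WT. A sum follows the most abundant markers most. The summed level of the 12 was 1392 to 1662 CPM in card1-1 DMBQ against 1323 to 1760 CPM in card1-1 mock, and 1087 to 1395 CPM in card1-2 DMBQ against 1680 to 1939 CPM in card1-2 mock. In WT it was 1371 to 1927 CPM in WT DMBQ against 1355 to 1451 CPM in WT mock. Seed storage transcripts were at or near 0 CPM in every group, except for a sum of 18.8 CPM in 1 library of card1-1 DMBQ. The part of these shoot and root differences in the results below was not tested. In whole seedlings, fewer cells of a type and less RNA per cell cannot be told apart.

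The genes lie on chromosomes 1 to 4 of the assembly TAIR10.1, with 1 to 9 exons and 1553 to 2843 bases of exonic sequence. MPK3 occupies 16756571 to 16758874 on chromosome 3 (plus strand, 6 exons). MKK9 occupies 27639091 to 27640643 on chromosome 1 (minus strand, 1 exon), and AP2C1 12814271 to 12816360 on chromosome 2 (plus strand, 2 exons). MPK6 occupies 18138246 to 18140988 on chromosome 2 (plus strand, 6 exons). The annotated spans of MPK3, MPK4, MPK6, MKK4 and MKK5 overlap other annotated genes, and the strand setting of the counting is not given in the sources used here, so reads from the overlaps cannot be told apart. Sequence shared with other genes was low: 3.85% of the 50-base words in the exons of AP2C1 and 2.37% of those of MEKK1 also occur elsewhere in the genome, and none of those of the other 8 genes.

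The 250 bases before the annotated transcript start are shown for the 3 genes that rose with DMBQ in WT, and for MPK6 as a gene of the same cascade that did not. Capitals mark matches, on either strand, to the W-box core TTGAC, which WRKY factors bind, or to the GCC box GCCGCC, which ethylene response factors bind. Positions are on TAIR10.1, and each sequence runs 5′ to 3′ on the strand of its gene.
MPK3: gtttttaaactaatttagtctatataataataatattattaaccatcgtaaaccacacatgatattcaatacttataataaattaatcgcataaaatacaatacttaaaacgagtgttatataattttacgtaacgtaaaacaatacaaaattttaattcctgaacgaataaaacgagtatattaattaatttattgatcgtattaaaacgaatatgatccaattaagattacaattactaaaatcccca
MKK9: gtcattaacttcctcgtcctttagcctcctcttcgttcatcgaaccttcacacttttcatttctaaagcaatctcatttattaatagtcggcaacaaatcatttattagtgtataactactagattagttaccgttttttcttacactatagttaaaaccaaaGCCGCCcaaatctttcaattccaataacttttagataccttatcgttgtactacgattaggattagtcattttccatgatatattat
AP2C1: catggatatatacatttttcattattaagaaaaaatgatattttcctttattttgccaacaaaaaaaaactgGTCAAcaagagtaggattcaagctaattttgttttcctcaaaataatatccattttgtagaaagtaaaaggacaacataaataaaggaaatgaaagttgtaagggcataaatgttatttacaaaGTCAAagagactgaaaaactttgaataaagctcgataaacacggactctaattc
MPK6: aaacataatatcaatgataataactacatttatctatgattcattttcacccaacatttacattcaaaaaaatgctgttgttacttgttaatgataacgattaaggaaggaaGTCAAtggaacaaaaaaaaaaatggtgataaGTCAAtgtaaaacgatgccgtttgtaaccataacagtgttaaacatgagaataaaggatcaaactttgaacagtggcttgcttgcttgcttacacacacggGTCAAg
These windows are chr3:16756321-16756570 (plus strand) for MPK3, chr1:27640644-27640893 (minus strand) for MKK9, chr2:12814021-12814270 (plus strand) for AP2C1 and chr2:18137996-18138245 (plus strand) for MPK6. The W-box core was found 2 times before AP2C1 and 3 times before MPK6. The GCC box was found 1 time, before MKK9, and the window of MPK3 held neither. Over all 10 genes, 5 windows held a W-box core and 1 a GCC box, against 44.5% and 1.98% of 32834 promoters of the same length. The G-box CACGTG, searched the same way, was in none of the 10 windows and in 5.83% of all. The stress element CGCGTT was in 2 of the 10 (MPK4 and MEKK1) and in 2.63% of all promoters. The element ACGCGT bound by calmodulin-binding CAMTA factors was in 1 of the 10, where it overlaps the CGCGTT match of MEKK1, and in 1.66% of all. The 3 genes that rose in WT shared none of the searched motifs in this window.

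Per kilobase of exonic sequence, the scale on which levels of different genes can be compared, MPK3 had the highest level of the 10 genes in WT mock, at 28.7 ± 6.38 CPM per kb (SD, n = 4). It lay wholly above MPK4 at 14.4 ± 0.841 and MPK6 at 13.8 ± 0.908 CPM per kb, whose libraries overlapped. MEKK1 at 9.85 ± 2.54, MKK2 at 9.39 ± 2.69, AP2C1 at 6.95 ± 1.30 and MKK5 at 6.84 ± 1.47 CPM per kb followed, each overlapping the next. MKK9 at 1.80 ± 0.714 and MKK4 at 1.495 ± 0.661 CPM per kb lay wholly below MKK5, and MPK11 was last at 0.190 ± 0.195 CPM per kb. With DMBQ, WT kept MPK3 at the top at 69.1 ± 10.2 CPM per kb. AP2C1 came second at 34.0 ± 6.61 CPM per kb, wholly below MPK3 and wholly above MPK6 at 12.9 ± 3.38 CPM per kb.

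**Figure D1:**
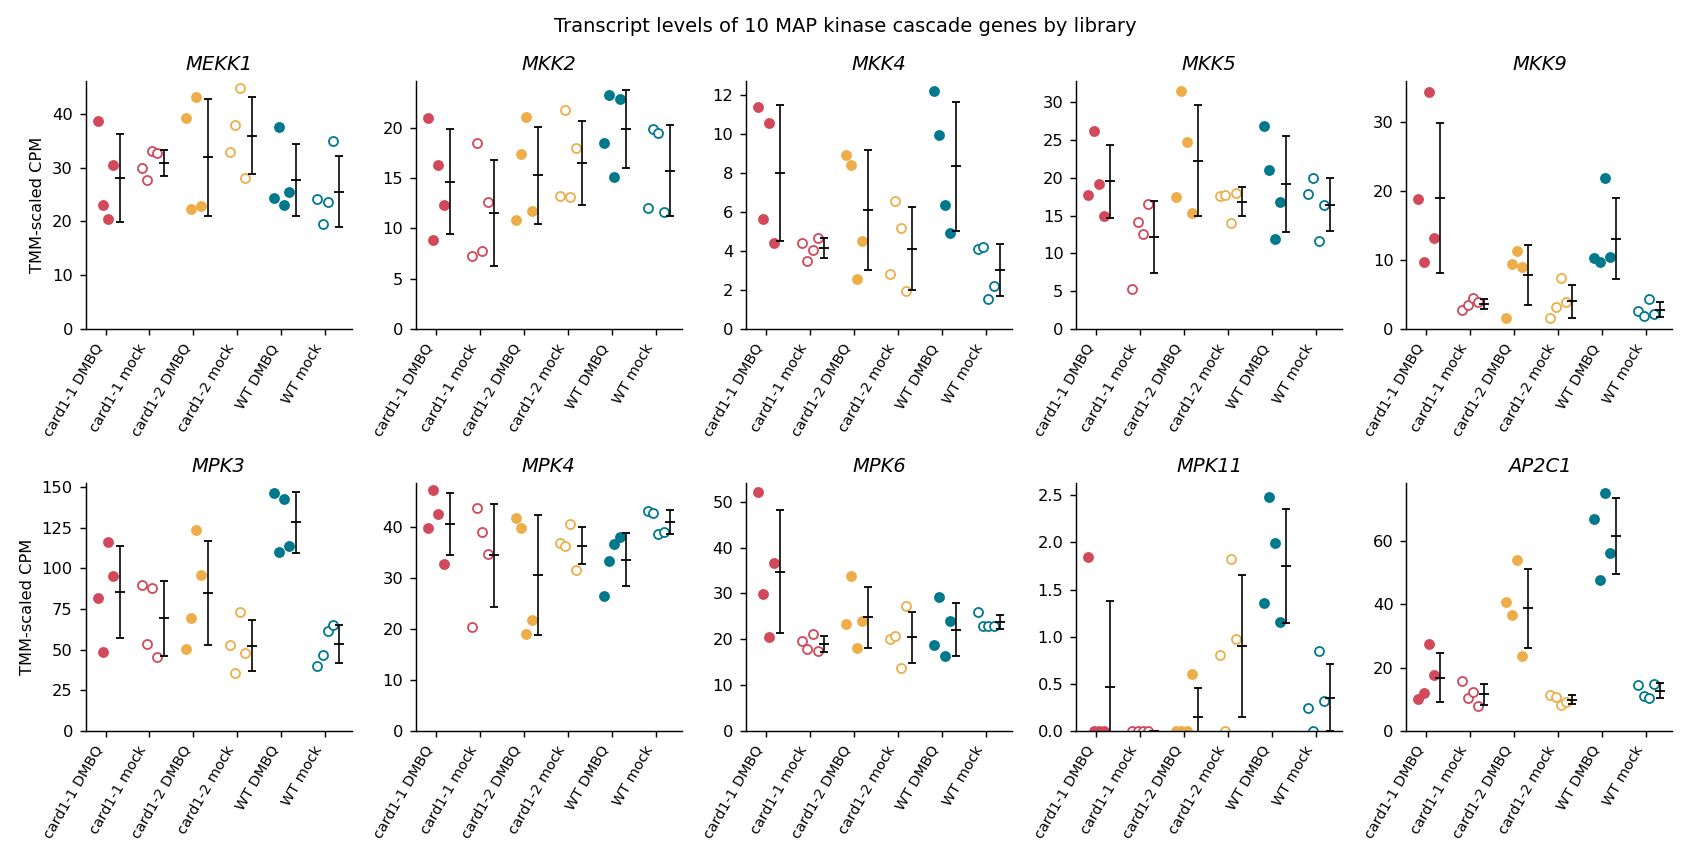
TMM-scaled CPM of each of the 10 genes (y axes, linear, a scale per gene) in every library of the 6 groups (x axes; filled circles DMBQ, open circles mock; colours are genotypes), with the mean and SD of each group (n = 4) as bars. The 4 WT DMBQ libraries lie wholly above the 4 WT mock libraries for MKK4, MKK9, MPK3, MPK11 and AP2C1, and AP2C1 stays at 9.94 to 27.3 CPM in card1-1 DMBQ.

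In WT, 3 of the 9 genes tested rose with DMBQ and none fell: the MAP kinase gene MPK3, the MAP kinase kinase gene MKK9 and the phosphatase gene AP2C1. By the same test 1.03% of all 17734 genes changed, 1.01% upward and 0.0113% downward. DESeq2 and limma voom also called 3 of the 9. In card1-1, 2 genes rose, MKK9 and MPK6, against 6.7% of all genes changed, 3.55% upward and 3.16% downward. In card1-2, AP2C1 alone passed, against 2.2% of all genes changed, 1.07% upward and 1.13% downward. The median log2 fold change of the 9 genes was 0.53 in card1-1, 0.42 in card1-2 and 0.33 in WT, beside -0.004, 0.025 and -0.007 over all genes tested. Of all 10 genes, 5 had WT DMBQ libraries wholly above the WT mock libraries and 1 wholly below, which held for 4.22% and 2.63% of all genes tested. The same groups enter several of these comparisons, so they are not independent of each other.

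**Figure D2:**
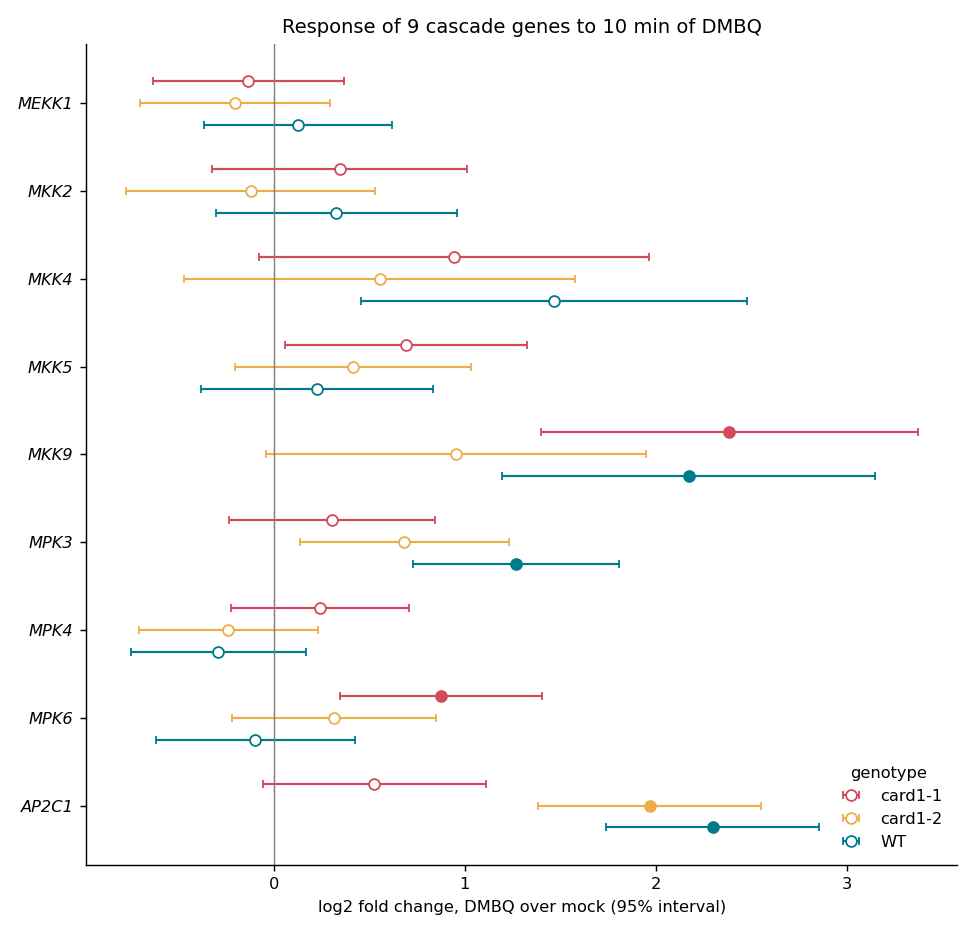
Log2 fold change of DMBQ over mock (x axis) for the 9 genes tested (y axis), with 95% intervals from edgeR, in card1-1 (red), card1-2 (yellow) and WT (blue). Filled points passed an adjusted p of 0.05: MKK9, MPK3 and AP2C1 in WT, MKK9 and MPK6 in card1-1, and AP2C1 in card1-2.

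MEKK1, the kinase at the top of the MPK4 branch, did not pass the test with DMBQ in any genotype. Its libraries spanned 23.1 to 37.6 CPM in WT DMBQ and 19.5 to 34.9 CPM in WT mock. Its log2 fold change with DMBQ was -0.13 (SE 0.26) in card1-1, -0.20 (SE 0.25) in card1-2 and 0.13 (SE 0.25) in WT, and none passed edgeR's test (adjusted p = 0.834, 0.796 and 1). Without DMBQ, MEKK1 had the largest positive difference of card1-2 from WT among the 9 genes, with 28.2 to 44.8 CPM in card1-2 mock against 19.5 to 34.9 CPM in WT mock. The log2 difference was 0.51 (SE 0.25) and did not pass (unadjusted p = 0.0487, adjusted p = 1).

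MKK2, the MAP kinase kinase of the same branch, ranged from 15.1 to 23.2 CPM in WT DMBQ and from 11.6 to 19.8 CPM in WT mock. Its log2 fold changes were 0.35 (SE 0.34) in card1-1, -0.12 (SE 0.33) in card1-2 and 0.33 (SE 0.32) in WT, with adjusted p = 0.635, 0.919 and 1 by edgeR. Its close relative MKK1, which shares its place in the cascade, had 3.14 ± 1.80 CPM in WT DMBQ and 4.20 ± 2.02 CPM in WT mock (SD, n = 4 each).

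MKK4 and MKK5 act side by side upstream of MPK3 and MPK6. MKK4 had 12.2, 9.95, 6.36 and 4.92 CPM in the 4 WT DMBQ libraries against 4.10, 4.19, 1.56 and 2.20 CPM in the 4 WT mock libraries. All WT DMBQ libraries were above all WT mock libraries, and the counts behind them were low, 16 to 45 in WT DMBQ and 7 to 26 in WT mock. The log2 fold change of 1.47 (SE 0.52, 95% interval 0.46 to 2.48) did not pass edgeR's test (adjusted p = 0.341), nor any alternative tried, whose adjusted p ranged from 0.0962 to 0.996. In card1-1 it was 0.94 (SE 0.52, adjusted p = 0.312), with 4.41 to 11.4 CPM in card1-1 DMBQ against 3.47 to 4.67 CPM in card1-1 mock. In card1-2 it was 0.56 (SE 0.52, adjusted p = 0.701). MKK5 had 11.9 to 26.9 CPM in WT DMBQ and 11.6 to 20.0 CPM in WT mock. Its log2 fold changes were 0.69 (SE 0.32) in card1-1, 0.41 (SE 0.32) in card1-2 and 0.23 (SE 0.31) in WT, with adjusted p = 0.214, 0.609 and 1 by edgeR.

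MKK9, a MAP kinase kinase known to activate MPK3 and MPK6 and to promote ethylene and camalexin synthesis, rose with DMBQ in WT and in card1-1. In WT it had 10.3, 9.67, 21.9 and 10.4 CPM in the DMBQ libraries against 2.65, 1.94, 4.40 and 2.20 CPM in the mock libraries. The groups did not overlap, and replicate 3 was the highest library in both. The fold change was 4.51 (log2 2.17, SE 0.50, adjusted p = 0.0117 by edgeR). This call was lost without WT mock replicate 1 (adjusted p = 0.0523), replicate 2 (0.0851) or replicate 4 (0.0506), or without WT DMBQ replicate 3 (0.123), with log2 fold changes between 1.82 and 2.14. In card1-1, MKK9 had 18.8, 9.68, 34.3 and 13.2 CPM in the DMBQ libraries against 2.79, 3.47, 4.45 and 3.85 CPM in the mock libraries. These groups did not overlap either, which held in the same direction for 4.86% of all genes tested. The fold change was 5.22 (log2 2.39, SE 0.50, adjusted p = 0.00244). Without the libraries over 55% not unique it was 2.59 on the log2 scale (adjusted p = 0.00638). With the share not unique as a covariate it was 2.81, with a wider SE of 0.82, and did not pass (adjusted p = 0.105). In card1-2, MKK9 had 1.56, 9.47, 11.3 and 9.01 CPM in the DMBQ libraries against 1.60, 3.15, 7.31 and 3.88 CPM in the mock libraries. Replicate 1 of card1-2 DMBQ lay below all card1-2 mock libraries and the other 3 lay above them, and the log2 fold change of 0.95 (SE 0.51) did not pass (adjusted p = 0.394).

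MPK3 is the MAP kinase gene of the stress branch whose transcript is itself stress-inducible. It had 146.4, 110.3, 142.8 and 113.7 CPM in the WT DMBQ libraries against 40.0, 46.9, 61.3 and 65.1 CPM in the WT mock libraries. The WT groups did not overlap, and the fold change was 2.40 (log2 1.27, SE 0.27, adjusted p = 0.0122 by edgeR). The call was lost without WT mock replicate 1 (log2 1.15, adjusted p = 0.0648), WT mock replicate 2 (1.21, adjusted p = 0.0758) or WT DMBQ replicate 1 (1.198, adjusted p = 0.0515), and with the share not unique as a covariate (1.18, adjusted p = 0.0516). In card1-1, MPK3 had 81.7, 48.8, 116.2 and 95.2 CPM in the DMBQ libraries against 90.0, 53.7, 87.9 and 45.4 CPM in the mock libraries. In card1-2 it had 50.5, 69.2, 123.8 and 95.8 CPM in the DMBQ libraries against 52.9, 35.8, 73.4 and 47.6 CPM in the mock libraries. Treated and mock libraries overlapped in both mutants. The log2 fold changes were 0.30 (SE 0.28, adjusted p = 0.598) in card1-1 and 0.68 (SE 0.28, adjusted p = 0.24) in card1-2.

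MPK4, the MAP kinase of the MEKK1 branch and known as a negative regulator of defence, had 26.3, 33.2, 36.6 and 37.9 CPM in WT DMBQ against 43.1, 42.7, 38.6 and 39.0 CPM in WT mock. All WT DMBQ libraries were below all WT mock libraries, but by a small margin. The log2 fold change of -0.29 (SE 0.23) did not pass edgeR's test (adjusted p = 1). It was 0.24 (SE 0.24, adjusted p = 0.631) in card1-1 and -0.24 (SE 0.24, adjusted p = 0.73) in card1-2.

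MPK6 shares substrates with MPK3 and is usually regulated at the protein rather than the transcript. In WT it had 18.7, 29.3, 16.3 and 24.01 CPM in the DMBQ libraries against 26.0, 22.9, 22.9 and 22.97 CPM in the mock libraries, with a log2 fold change of -0.09 (SE 0.27, adjusted p = 1 by edgeR). In card1-1 it had 52.3, 29.8, 20.4 and 36.6 CPM in the DMBQ libraries against 19.5, 17.9, 21.1 and 17.3 CPM in the mock libraries. Replicate 1 of card1-1 DMBQ was the highest and replicate 3 fell within the card1-1 mock range. The log2 fold change of 0.88 (SE 0.27) passed at an adjusted p of 0.0403. It was 0.40 (SE 0.30, adjusted p = 0.466) without the libraries over 55% not unique, which include the highest, and 0.61 (adjusted p = 0.224) without replicate 1 of card1-1 DMBQ alone. The call was also lost without replicate 4 of card1-1 DMBQ (0.86, adjusted p = 0.0671), without any 1 of the 4 card1-1 mock libraries (0.83 to 0.93, adjusted p from 0.0604 to 0.0922) and with the covariate (0.91, adjusted p = 0.45), and in 11 of 34 alternatives in all. In card1-2 the log2 fold change was 0.32 (SE 0.27, adjusted p = 0.666), with 17.98 to 33.9 CPM in card1-2 DMBQ against 13.7 to 27.2 CPM in card1-2 mock.

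MPK11, a close relative of MPK4, was barely detected and did not pass the filter on low counts. Its counts summed to 23 in WT DMBQ against 8 in WT mock, which are 1.73 CPM (exact Poisson 95% interval 1.10 to 2.60) and 0.389 CPM (0.168 to 0.766), intervals that cover counting error only. By library these were 1.36, 2.49, 1.99 and 1.16 CPM in WT DMBQ against 0.241, 0, 0.852 and 0.315 CPM in WT mock. The WT groups did not overlap. In card1-1 it had 5 counts, all in 1 DMBQ library, against none in the 4 card1-1 mock libraries. For that mock group the exact Poisson 95% interval runs from 0 to 0.262 CPM. In card1-2 it had 2 counts, in 1 DMBQ library, against 10 counts in 3 card1-2 mock libraries. All card1-2 DMBQ libraries were below all WT DMBQ libraries, which held for 3.62% of the genes tested. With no filter on low counts, MPK11 did not pass edgeR's test with DMBQ in WT (log2 2.17, SE 1.43, unadjusted p = 0.133, adjusted p = 1). Nor did it in card1-1 (log2 3.84, SE 1.82, unadjusted p = 0.0387, adjusted p = 0.255), where the estimate rests on the 5 counts of 1 library. In card1-2 it did not pass (log2 -2.34, SE 1.59, unadjusted p = 0.146, adjusted p = 0.595). For card1-2 against WT with DMBQ it did not pass either (log2 -3.28, SE 1.59, unadjusted p = 0.0429, adjusted p = 0.437).

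AP2C1 encodes a protein phosphatase of the PP2C type known to inactivate MPK4 and MPK6, and so to limit stress signalling through the cascade. Of the 9 genes tested it had the smallest p in WT. In WT it had 67.0, 47.8, 75.2 and 56.4 CPM in the DMBQ libraries against 14.5, 10.97, 10.2 and 14.8 CPM in the mock libraries. The lowest DMBQ library was over 3 times the highest mock library. The fold change was 4.92 (log2 2.30, SE 0.28, 95% interval 1.74 to 2.85, adjusted p = 5.14e-07 by edgeR), and the gene had the seventeenth smallest p of all. In card1-2 it had 40.8, 36.7, 53.9 and 23.7 CPM in the DMBQ libraries against 11.2, 10.6, 8.23 and 9.22 CPM in the mock libraries. These groups did not overlap, which held in the same direction for 4.07% of all genes tested, and the fold change was 3.91 (log2 1.97, SE 0.30, adjusted p = 9.69e-05). Without the libraries over 55% not unique it was 1.78 on the log2 scale (adjusted p = 0.000477). In card1-1 it had 9.94, 12.1, 27.3 and 17.6 CPM in the DMBQ libraries against 15.8, 10.4, 12.2 and 7.70 CPM in the mock libraries. Here the groups overlapped, 2 DMBQ libraries lay within the mock range, and the log2 fold change of 0.53 (SE 0.30, 95% interval -0.06 to 1.11) did not pass (adjusted p = 0.331). The WT and card1-2 calls held in all 34 alternatives tried.

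The difference of the DMBQ response between each mutant and WT was tested directly. None of the 9 genes passed in card1-1, in card1-2 or in the mean of both mutants, where edgeR called 0.0564%, 0.0282% and 0.062% of all genes. At an unadjusted p below 0.05 the counts were 3 of 9 for card1-1 (MPK3, MPK6 and AP2C1), 0 for card1-2 and the same 3 genes for the mean. DESeq2 called 1 for card1-1 and 0 for the other 2 differences, and limma voom called 0 for each. AP2C1 came closest. Its response in card1-1 minus that in WT was -1.77 on the log2 scale (SE 0.41, 95% interval -2.57 to -0.97, adjusted p = 0.0757). Without the libraries over 55% not unique it was -1.54 (adjusted p = 0.116). It passed in 4 of 34 alternatives, among them DESeq2 (-1.76, adjusted p = 0.0121), the fit without replicate 4 of card1-1 mock (-1.93, adjusted p = 0.0329) and that without replicate 3 of card1-1 DMBQ (-2.10, adjusted p = 0.0115), and over all alternatives the adjusted p ranged from 0.0115 to 0.205. In card1-2 the difference from WT was -0.33 (SE 0.41, 95% interval -1.12 to 0.46, adjusted p = 0.923). For MPK3 the difference was -0.96 (SE 0.39, adjusted p = 0.402) in card1-1 and -0.58 (SE 0.39, adjusted p = 0.796) in card1-2. For MKK9 it was 0.21 (SE 0.71, adjusted p = 0.97) in card1-1 and -1.22 (SE 0.71, 95% interval -2.60 to 0.16, adjusted p = 0.735) in card1-2. For MKK4 it was -0.52 (SE 0.73) and -0.91 (SE 0.73), and for MPK6 0.97 (SE 0.38) and 0.41 (SE 0.38), in card1-1 and in card1-2. Over the 34 alternatives the MPK6 difference in card1-1 ran from 0.50 to 1.17, and it passed in none. The 95% intervals of the response differences are wide, so a gene called in 1 genotype and not in another is not shown to differ between them.

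**Figure D3:**
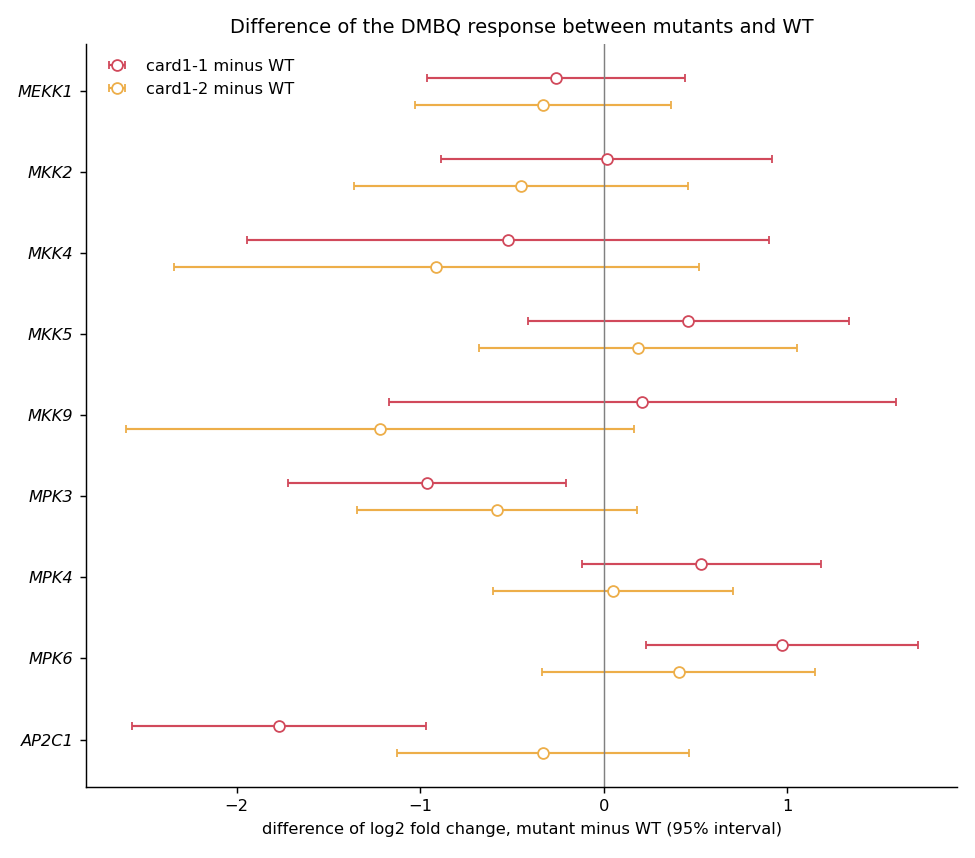
Difference of the DMBQ response, mutant minus WT, in log2 units (x axis) for the 9 genes tested (y axis), with 95% intervals from edgeR, for card1-1 (red) and card1-2 (yellow). The interval of AP2C1 in card1-1 runs from -2.57 to -0.97, the farthest from 0 of all shown, and no point passed an adjusted p of 0.05.

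Set against WT with DMBQ in both, 1 of the 9 genes was lower in card1-1, AP2C1, where 0.801% of all genes differed and 0.524% were lower. The 4 card1-1 DMBQ libraries, at 9.94 to 27.3 CPM, lay wholly below the 4 WT DMBQ libraries, at 47.8 to 75.2 CPM, which held for 3.84% of all genes tested. The log2 difference was -1.88 (SE 0.29, 95% interval -2.44 to -1.32, adjusted p = 0.00017 by edgeR). It passed in all 34 alternatives, with values from -2.22 to -1.64 and adjusted p up to 0.0366, the highest being the fit with the share not unique as a covariate. Without the libraries over 55% not unique it was -1.64 (adjusted p = 0.0117). In card1-2 none of the 9 genes passed, where 0.789% of all genes did; 2 had an unadjusted p below 0.05, and neither DESeq2 nor limma voom called any. AP2C1 had 23.7 to 53.9 CPM in card1-2 DMBQ against 47.8 to 75.2 CPM in WT DMBQ, a log2 difference of -0.68 (SE 0.27, adjusted p = 0.255). MPK3 with DMBQ differed from WT by -0.59 (SE 0.27, adjusted p = 0.362) in card1-1 and by -0.60 (SE 0.27, adjusted p = 0.35) in card1-2. In card1-1, 3 of the 9 genes had an unadjusted p below 0.05 by edgeR: AP2C1, MPK3 and MPK6. Of these MPK6 was higher than in WT, by 0.65 (SE 0.27, adjusted p = 0.272), and in card1-2 it differed by 0.18 (SE 0.27, adjusted p = 0.844).

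The 2 mutants were also compared with each other for AP2C1 and MKK9, a comparison added after their values were seen. With DMBQ, AP2C1 was at 9.94 to 27.3 CPM in card1-1 against 23.7 to 53.9 CPM in card1-2, a log2 difference of -1.203 (SE 0.29, adjusted p = 0.0552 by edgeR, where 0.158% of all genes passed). It did not pass here, but did in 7 of 34 alternatives, and it was -0.78 (adjusted p = 0.288) without the libraries over 55% not unique. The difference of the AP2C1 response, card1-1 minus card1-2, was -1.44 (SE 0.42, 95% interval -2.26 to -0.62, adjusted p = 0.229). For MKK9 the log2 difference between the mutants with DMBQ was 1.27 (SE 0.47, adjusted p = 0.233). The alleles were not shown to differ.

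Without DMBQ, none of the 9 genes passed for either mutant against WT by edgeR, DESeq2 or limma voom, where edgeR called 0% of all genes in card1-1 and 0.0226% in card1-2. At an unadjusted p below 0.05 the counts were 0 in card1-1 and 1, MEKK1, in card1-2. In card1-1 the log2 differences of the 9 genes lay between -0.46 (MKK2, SE 0.33) and 0.46 (MKK4, SE 0.53), and in card1-2 between -0.35 (AP2C1, SE 0.30) and 0.51 (MEKK1). AP2C1 had 7.70 to 15.8 CPM in card1-1 mock and 8.23 to 11.2 CPM in card1-2 mock, against 10.2 to 14.8 CPM in WT mock. MPK6 was the single gene of the 10 whose libraries did not overlap between a mutant and WT without DMBQ. It had 17.3 to 21.1 CPM in card1-1 mock against 22.9 to 26.0 CPM in WT mock, a pattern that 1.76% of all genes tested showed.

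The wider pathway was followed in 5 lists of genes. Among other MAP kinases, 14 of 16 were tested and none passed with DMBQ in WT, with a median log2 fold change of -0.09; 1 had an unadjusted p below 0.05, and neither DESeq2 nor limma voom called any. That gene, MPK18, a kinase linked to microtubules, had the largest change of the list at -0.44 (SE 0.17, adjusted p = 0.469 by edgeR). Its level was 65.2 ± 6.95 CPM in WT DMBQ against 88.0 ± 6.90 CPM in WT mock (SD, n = 4 each). Among other MAP kinase kinases, 3 of 6 were tested and none passed in WT, also by DESeq2, limma voom or an unadjusted p below 0.05. MKK1 had the largest change there at -0.42 (SE 0.70). Among other MEKK-type kinases, 14 of 19 were tested and none passed in WT (1 at an unadjusted p below 0.05, none by DESeq2 or limma voom), with a median of 0.08. MAPKKK14 had the largest change there at 1.24 (SE 0.44, adjusted p = 0.363), with 17.7 ± 7.51 CPM in WT DMBQ against 7.43 ± 1.33 CPM in WT mock. It passed when only the groups compared were fitted (adjusted p = 0.024). MEKK2 and MEKK3, which lie beside MEKK1 in the genome, had log2 fold changes of -0.18 (SE 0.26) and 0.09 (SE 0.35). Among other MAP kinase phosphatases, 7 of 9 were tested and none passed in WT by edgeR, DESeq2, limma voom or an unadjusted p below 0.05, with a median of 0.07. DSPTP1, a phosphatase of dual specificity, had the largest change at -0.54 (SE 0.80). AP2C2 and AP2C3, the closest relatives of AP2C1, were below the filter.

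**Figure D4:**
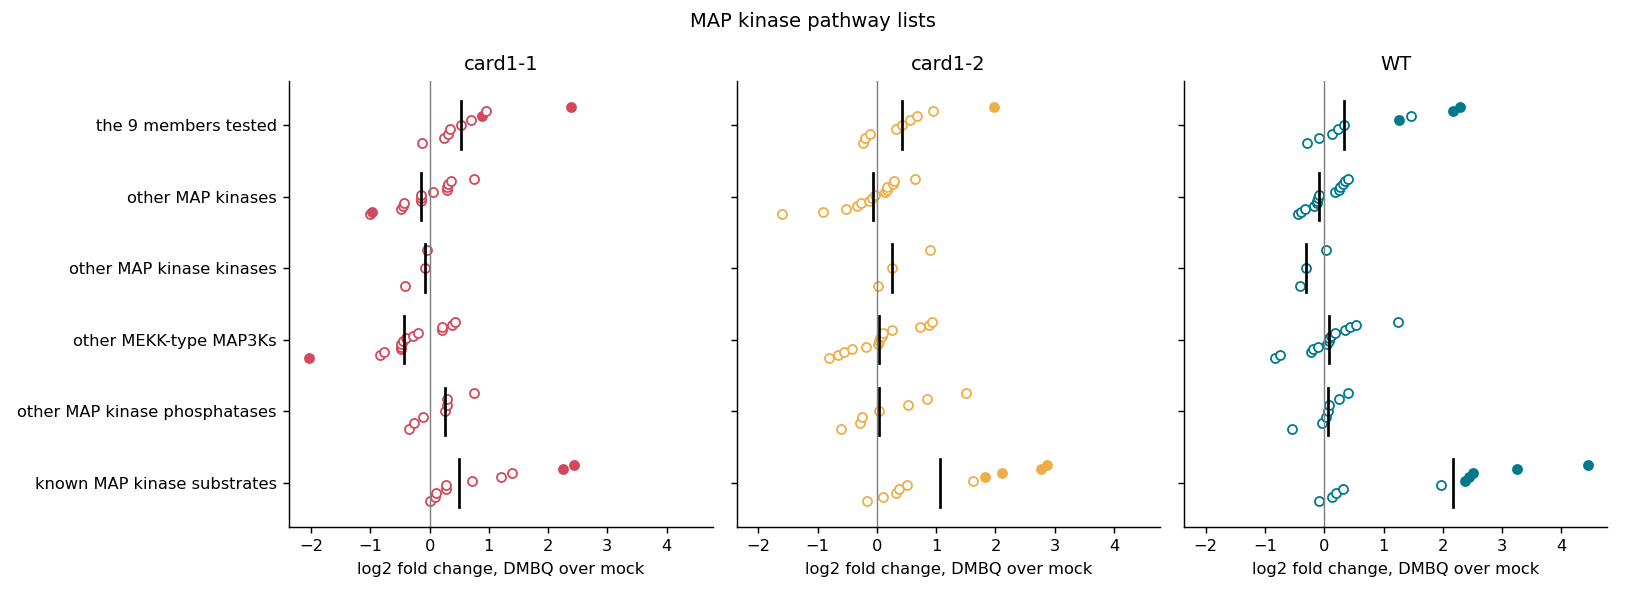
Log2 fold change of DMBQ over mock (x axes, the same scale in each panel) for the genes tested in each pathway list (rows), in card1-1, card1-2 and WT; filled points passed an adjusted p of 0.05 by edgeR and black bars are the list medians. In WT the filled points are 3 of the 9 genes and 5 known substrates, and the bars of the other lists lie between -0.31 and 0.08.

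Of the genes for known MAP kinase substrates, 10 of 11 were tested, and 5 rose and none fell in WT, where 1.01% of all genes rose. The median log2 fold change of the list was 2.17, beside -0.007 over all genes tested. ZAT10 (STZ), a zinc finger repressor, had 30.4 ± 7.11 CPM in WT DMBQ against 1.21 ± 1.03 CPM in WT mock (SD, n = 4 each; log2 4.45, SE 0.57, adjusted p = 1.87e-06 by edgeR). ERF104 and ERF6, ethylene response factors, rose by 3.25 (SE 0.44, adjusted p = 0.000218) and 2.38 (SE 0.46, adjusted p = 0.00716) on the log2 scale. WRKY33, a defence factor required for camalexin synthesis, had 443.8 ± 42.4 CPM in WT DMBQ against 77.7 ± 6.04 CPM in WT mock (log2 2.51, SE 0.34, adjusted p = 0.000181). ACS6, an ethylene synthesis enzyme stabilised by MPK6, had 28.1 ± 8.80 CPM in WT DMBQ against 5.06 ± 2.30 CPM in WT mock (log2 2.45, SE 0.50, adjusted p = 0.00393). In card1-2, where 1.07% of all genes rose, 4 of the 10 did, with a list median of 1.06. They were ZAT10 (STZ, log2 2.88), ERF104 (2.78), ERF6 (2.11) and WRKY33 (1.82), with adjusted p = 0.00274, 0.00195, 0.0239 and 0.00539 by edgeR. ERF6 there did not pass without replicate 2, 3 or 4 of card1-2 mock or replicate 3 of card1-2 DMBQ (adjusted p from 0.069 to 0.0913, log2 1.73 to 2.08). Nor did it with limma voom (adjusted p = 0.107), with GC and length offsets (0.0532), with the share not unique as a covariate (0.0827) or without the libraries over 55% not unique (log2 1.73, adjusted p = 0.0823). Without those libraries ZAT10 (2.94), ERF104 (2.38) and WRKY33 (1.59) passed in card1-2, with adjusted p = 0.0053, 0.0104 and 0.0312. In card1-1, where 3.55% of all genes rose, 2 of the 10 did, ERF104 (2.25, adjusted p = 0.00406) and ZAT10 (STZ, 2.44, adjusted p = 0.00664), with a list median of 0.49. Neither passed with the share not unique as a covariate (adjusted p = 0.358 and 0.354), nor did ZAT10 with limma voom (0.0766) or with only the groups compared (0.0746). Without the libraries over 55% not unique both passed (ERF104 2.38, adjusted p = 0.00994; ZAT10 2.64, adjusted p = 0.0155). None of the 10 passed for the difference of the response between either mutant and WT by edgeR or limma voom. DESeq2 called 1 in card1-1 and 0 in card1-2, and 3 and 0 had an unadjusted p below 0.05. In card1-1, where 3.16% of all genes fell with DMBQ, 1 of 14 other MAP kinases and 1 of 14 other MEKK-type kinases tested fell. None of the 3 other MAP kinase kinases or 7 other MAP kinase phosphatases tested passed there. The 2 that fell were MPK5 (log2 -0.98, SE 0.29, adjusted p = 0.0343) and the kinase gene MAPKKK17 (-2.04, SE 0.61, adjusted p = 0.0351). MPK5 had 17.5 ± 8.05 CPM in card1-1 DMBQ against 34.6 ± 9.31 CPM in card1-1 mock, and MAPKKK17 had 1.67 ± 1.12 CPM in card1-1 DMBQ against 6.82 ± 1.67 CPM in card1-1 mock. MPK5 lost its call without replicate 2 or 3 of card1-1 mock or replicate 1 or 2 of card1-1 DMBQ (log2 -0.96 to -0.70, adjusted p from 0.0737 to 0.123), with GC and length offsets (-0.93, adjusted p = 0.0506) and with only the groups compared (-0.97, adjusted p = 0.176). It passed without the libraries over 55% not unique (-1.28, adjusted p = 0.0379) and, at -2.02, with the covariate (adjusted p = 0.0323). MAPKKK17 lost it without replicate 1, 2 or 4 of card1-1 mock or replicate 1, 2 or 3 of card1-1 DMBQ (-2.16 to -1.79, adjusted p from 0.0517 to 0.107). It also lost it with limma voom (adjusted p = 0.109), with only the groups compared (0.139), with the covariate (-2.55, adjusted p = 0.3) and without the libraries over 55% not unique (-2.25, adjusted p = 0.0895).

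The genes whose pattern over the 24 libraries was most like that of each gene that rose in WT were found by the root-mean-square difference of log2(CPM + 1), each gene centred on its own mean, among 14667 genes with a mean of at least 5 CPM. For MPK3 these were SYP122 (0.285), which encodes a plasma membrane syntaxin, AT5G42050 (0.321) and AT4G33920 (0.322), beside a median of 0.724 over all candidates. For MKK9 they were AT5G66650 (0.560), the heat shock factor gene HSFA8 (0.567) and AT2G43120 (0.618), beside a median of 1.12. For AP2C1 they were AT5G28610 (0.452), AT5G19240 (0.464) and PP2-B13 (0.468), beside a median of 1.08. These genes were picked by their likeness over the same 24 libraries, so similar fold changes follow from the choice and are no separate result. The log2 fold changes of AT5G28610, the closest to AP2C1, were 0.76 in card1-1, 1.90 in card1-2 and 2.01 in WT. Those of PP2-B13 with DMBQ were 0.36 in card1-1, 2.64 in card1-2 and 2.48 in WT, beside 0.53, 1.97 and 2.30 for AP2C1. Those of SYP122 were 0.71 in card1-1, 1.07 in card1-2 and 1.60 in WT, beside 0.30, 0.68 and 1.27 for MPK3.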

How the data were processed

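Counts per gene were analysed for 24 libraries in 6 groups, with groups and replicate numbers from the labels. Whether replicates were separate cultures is not stated, so p-values cover the spread among these libraries only, which may be technical. The build TAIR10, HTSeq 0.6.1, TopHat2 2.1.1, TopHat, bcl2fastq 2.17 and CASAVA are named per the submitters' processing notes, in no order or role. Strand and overlap settings: not given in the sources used here. The table deposited by the authors gives raw whole-number counts per gene, recorded in the class of estimated counts because its columns also carry 1 line of fractions. Its 9 lines without a gene name entered neither library sizes nor tests. Of all records they hold 17.3% to 66.5% not unique, 1.86% to 3.10% without a feature and 0.149% to 0.360% ambiguous.

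The filter on low counts was edgeR's filterByExpr with the 6 groups (minimum count 10, minimum total 15), and the scaling TMM. The two-sided quasi-likelihood test of edgeR 4.0.16 (robust, R 4.3.3) had a term per group, no block and all 24 libraries in 1 fit. Benjamini-Hochberg adjustment ran over the 17734 genes tested within each of 10 comparisons, plus 2 added after values were seen, with a threshold of 0.05. Adjusted p-values are of this test where no other fit is named. SEs are the absolute log2 fold change divided by the square root of that test's F statistic, and 95% intervals are the estimate ± 1.96 SE. Both are approximate, and an interval can leave out 0 where the unadjusted p is just over 0.05. Alternatives used DESeq2 1.42.0, limma 3.58.1 (voom), other scalings, GC and length offsets, no filter, only the groups compared, a replicate block, the share not unique as a covariate, and libraries left out. Names, exons, positions and promoter windows come from RefSeq's annotation of TAIR10.1, which matched 32835 genes. In the 36 within-group pairs the chi-square per degree of freedom was 3.78 to 29.2, so no pair matched within sampling noise. The test was checked on simulated data, for DMBQ against mock in WT. It recovered 35% of 100 genes changed by an absolute log2 of 1 and 83% of 100 changed by 2. Genes at the low level of MKK4 and MKK9 in WT mock were not among those changed. A gene not called may thus still have changed by a log2 of 1.

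All 10 genes are named. From the pathway lists, the genes past the threshold in any comparison and the gene of each list with the largest change in WT are named, with MEKK2, MEKK3 and MKK1 as close relatives. The code AT5G58190 was dropped because the annotation names another gene there. The genes and lists were chosen with earlier results of these data known.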

Additional observations from a re-analysis of the deposited data

Results flagged for a closer look

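Of 59 groups of 4 libraries (each of the 10 genes in each of the 6 groups, leaving out a group listed at 0 throughout), 6 held a library whose gap to its nearest neighbour, divided by the group's range, passed Dixon's 95% critical value for 4 samples. Chance alone flags about 5% of such groups where the values are continuous and normal. A group with counts in 1 library and 0 in the others always passes, so this rate does not apply to the MPK11 groups below. MEKK1 was at 37.6 CPM in WT DMBQ replicate 2, against 23.1 to 25.5 CPM in the other 3 libraries. MKK5 was at 14.0 CPM in card1-2 mock replicate 3, against 17.6 to 17.96 CPM in the others. MKK9 was at 21.9 CPM in WT DMBQ replicate 3, against 9.67 to 10.4 CPM in the others, and its WT response without that library is given with its values above. MPK6 was at 26.0 CPM in WT mock replicate 1, against 22.9 to 22.97 CPM in the others. MPK11 was at 1.84 CPM in card1-1 DMBQ replicate 1 and at 0.6005 CPM in card1-2 DMBQ replicate 4, with 0 counts in the other 3 libraries of each group. No explanation was tested for these values.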

How the results depend on the processing

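Each value was recomputed under 34 alternatives. Of the values of the 9 genes tested over all comparisons and alternatives, 86 of 3672 changed sign, none of them a called value. The number of the 9 genes called with DMBQ in WT was 3, 2 with the share not unique as a covariate, and 1 to 3 when a library was left out. In card1-1 it was 2. It was 1 with limma voom, without the filter, with only the groups compared and without the libraries over 55% not unique, 0 with the share not unique as a covariate, and 1 to 2 when a library was left out. For the difference of the response, card1-1 minus WT, it was 0, but 1 with DESeq2 and 0 to 1 when a library was left out. For card1-1 against card1-2 with DMBQ it was 0, but 1 with DESeq2, with GC and length offsets and without the filter, and 0 to 1 when a library was left out. The cause of these shifts was not tested. No other count of the 9 genes moved by more than 1.5 times. Values that turned sign were all uncalled. With the covariate the log2 fold change of MEKK1 in WT was -0.12, that of MPK3 in card1-1 -0.012 and that of MKK2 in card1-1 -0.11. With GC and length offsets that of MEKK1 in card1-1 was 0.076. When a library was left out, MEKK1 in WT ran from -0.058 to 0.31 and MPK6 in WT from -0.26 to 0.016. MKK2 in card1-2 ran from -0.29 to 0.050, the response difference of MKK9 in card1-1 from -0.23 to 0.57, and MPK6 in card1-2 against WT with DMBQ from -0.023 to 0.35. Over all genes, the number called ranged from 117 to 349 in WT (main 182), from 119 to 1559 in card1-1 (1189) and from 195 to 615 in card1-2 (390). For the response differences it ranged from 2 to 99 in card1-1 (main 10), from 1 to 56 in card1-2 (5) and from 1 to 119 for their mean (11). Without DMBQ it ranged from 0 to 6 in card1-1 (0) and from 1 to 19 in card1-2 (4), and with DMBQ from 34 to 312 (142) and from 17 to 400 (140). Between the mutants it ranged from 0 to 45 for the response (0) and from 1 to 212 with DMBQ (28). The split of these calls moved with the scaling. With DMBQ in card1-1, 629 genes rose and 560 fell, but 458 and 249 with GC and length offsets. In card1-2, 190 rose and 200 fell, but 138 and 283 with total counts alone and 152 and 44 with the offsets. With DMBQ, 49 genes were higher and 93 lower in card1-1 than in WT, but 31 and 115 with total counts and 56 and 47 with the offsets. For card1-2 against WT they were 83 and 57, but 37 and 127 with total counts, where the median of all genes was -0.105, and 89 and 21 with the offsets. For card1-1 against card1-2 they were 7 and 21, but 17 and 15 with total counts and 21 and 27 with the offsets.

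The labels tie no replicate number to a shared culture or day, and same-numbered libraries of different groups missed the criterion for pairs, a correlation of their deviations over 0.1 in every pair. Of 60 same-numbered pairs 27 were over 0.1 (median 0.079), against 16 of 180 pairs with different numbers (median -0.038). Of 24 libraries, 15 correlated best with their own number, a hint from the data and not from the design. With a replicate block, 1 of the 9 genes was called for the difference of the response, card1-1 minus WT (AP2C1, -1.75, adjusted p = 0.0335), and 1 for card1-1 against card1-2 with DMBQ (AP2C1, -1.21, adjusted p = 0.0332 by edgeR). The block changed no other count of the genes called.

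Depth limits MPK11, MKK4 and MKK9 most, whose counts per library were lowest among the 10 genes.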
